A study of Mus musculus with 20 samples.

Results

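Ddit4 and 8 other genes called brakes on mTOR were followed in the mouse spinal cord after an injection of dexamethasone (Dex), a synthetic glucocorticoid. Their products hold back the growth kinase mTOR or, in the case of Eif4ebp1, a step downstream of it. The 9 genes were Ddit4, Ddit4l, Sesn1, Sesn2, Sesn3, Deptor, Tsc1, Tsc2 and Eif4ebp1, taken by name from the table of array values, with probe sets that carry that single gene symbol. All 9 of the 9 had such a probe set (10 probe sets, with a second one for Deptor), out of 22180 genes measured. The study crossed 2 genotypes with 2 treatments in C57BL/6J mice of 6 to 10 weeks, with 5 mice in each of the 4 groups and 1 array per mouse. Control mice received saline (control saline) or Dex at 4 mg/kg into the peritoneum (control Dex), and Cx30GRko mice received the same (Cx30GRko saline and Cx30GRko Dex). RNA of the spinal cord was taken 4 h after the injection, and no pooling of mice is stated. In Cx30GRko mice Cre-mediated recombination removes the glucocorticoid receptor in cells that express connexin 30, a gap junction protein of astrocytes, so that other cells of the cord keep the receptor. Arrays with Tg in their title were taken as Cx30GRko.

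mTOR complex 1 is a kinase complex that promotes protein synthesis and cell growth when growth factors, amino acids and energy are plentiful. Its activator, the small GTPase Rheb, is kept inactive by the complex of Tsc1 (hamartin) and Tsc2 (tuberin), and Ddit4 (also called Redd1) acts through that complex to switch mTOR complex 1 off. Sestrins (Sesn1, Sesn2 and Sesn3) restrain mTOR complex 1 through the amino acid sensing machinery and through AMPK, Deptor binds mTOR itself, and Eif4ebp1 blocks the cap-binding factor Eif4e until mTOR complex 1 phosphorylates it. Ddit4 is known as a gene that glucocorticoids induce in several tissues. Transcript levels say nothing of the phosphorylation by which much of this pathway is controlled.

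Promoter sequences were matched for 7 of the 9 genes in RefSeq (build GRCm38.p6). The 250 bases before the start are shown for Ddit4, the gene on which the results turn, and for Sesn1, the gene with the most similar size of change, which has 2 starts in the table. Capitals mark the 1 match found among the motifs searched. The Ddit4 stretch lies at chr10:59951771-59952020 on the minus strand, and the Sesn1 stretches at chr10:41810324-41810573 and chr10:41887189-41887438 on the plus strand.
Ddit4: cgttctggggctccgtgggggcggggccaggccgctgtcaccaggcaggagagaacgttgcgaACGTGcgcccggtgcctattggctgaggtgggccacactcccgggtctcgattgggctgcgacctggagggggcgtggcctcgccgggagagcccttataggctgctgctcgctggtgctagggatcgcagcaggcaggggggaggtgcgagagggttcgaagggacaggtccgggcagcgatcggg
Sesn1, first start: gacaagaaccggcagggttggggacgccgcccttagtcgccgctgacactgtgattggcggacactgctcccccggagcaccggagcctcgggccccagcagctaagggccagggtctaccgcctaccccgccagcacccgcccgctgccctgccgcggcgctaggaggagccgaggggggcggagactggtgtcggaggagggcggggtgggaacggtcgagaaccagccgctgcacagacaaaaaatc
Sesn1, second start: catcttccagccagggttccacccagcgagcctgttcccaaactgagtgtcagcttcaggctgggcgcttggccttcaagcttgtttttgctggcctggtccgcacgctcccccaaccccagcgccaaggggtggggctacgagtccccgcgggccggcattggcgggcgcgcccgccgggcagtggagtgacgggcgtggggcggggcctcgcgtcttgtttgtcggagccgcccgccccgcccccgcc
The motifs, searched on both strands, were the glucocorticoid receptor hexamer AGAACA, its full palindrome of AGAACA and TGTTCT with 3 bases between them, the Atf4 element TGATGNAAN, the hypoxia core ACGTG and the E-box CACGTG, which contains ACGTG. Ddit4 held ACGTG once, with its first base at position -187 from the start, and 16.6% of 32851 mouse promoter stretches of the same length hold it. None of the 8 stretches of the 7 matched genes held AGAACA, which 16.1% of promoter stretches hold, the palindrome (0.00913%), TGATGNAAN (3.44%) or CACGTG (6.02%). No match says only that these letters are not in this window.

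Each value below is a probe set's signal on the log2 scale, whose precision the number of arrays limits. Replicates 1 to 3 (12 arrays, the first set) and replicates 4 and 5 (8 arrays, the second set) form separate array sets, each with all 4 groups, because each probe set has the same mean in both. A level in one set can therefore not be compared with a level in the other, while a difference between groups within a set can. Cx30GRko Dex replicates 4 and 5 stood apart, with array SDs of 1.95 and 1.81, whereas the other 18 arrays had 1.66 to 1.71. Residual SDs had a median of 0.21 in the first set and of 0.37 in the second. Nr3c1, the gene removed in Cx30GRko mice, had means of 6.21 ± 0.50 (SD, n = 5) in control saline and 6.19 ± 0.21 in Cx30GRko saline arrays. Its genotype difference was -0.02 ± 0.26 under saline (SE; adjusted p = 0.995) and 0.37 ± 0.26 under Dex (adjusted p = 0.6), and whether its probes lie in the removed part is not given in the sources used here. Of the cell type markers, astrocyte, oligodendrocyte and neuron genes stood at a median percentile of 95.3, 96.3 and 96.8 among the signals of all genes, and blood cell genes at 14.1.

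The first question was how far Dex changed these brakes across both genotypes. Ddit4 rose 1.78-fold, and it was the only one of the 9 that passed the test. Sesn1, a sestrin, was higher by as much but with a larger error, and Sesn3 and Sesn2 were higher by less. The mTOR-binding Deptor, the Rheb inhibitors Tsc1 and Tsc2, the Ddit4 relative Ddit4l and the translation brake Eif4ebp1 stood between -0.11 and 0.13 on the log2 scale. Differences were tested with limma over all 22180 genes with Benjamini-Hochberg adjusted p-values, and a gene was called at an adjusted p under 0.05. For the mean of both Dex effects limma called 33 genes, of which 29 rose, or 0.149% of all genes. Ddit4 had the 22nd smallest p of them.

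Ddit4 (probe set 17241032) had log2 signals of 4.06, 3.96, 4.50, 4.66 and 4.71 in control saline arrays, from replicate 1 to 5. The Ddit4 signals were 5.41, 5.46, 5.43, 4.68 and 4.63 in control Dex arrays. In Cx30GRko mice they were 4.07, 3.94, 3.85, 4.79 and 4.53 under saline, and 5.58, 5.18, 5.26, 4.99 and 4.80 under Dex. In replicates 1 to 3 all 6 Dex arrays lay above all 6 saline arrays, with a gap between 4.50 and 5.18. In replicates 4 and 5 the groups overlapped in control mice, where both Dex signals lay at or below 4.68, and in all 8 arrays Ddit4 spanned only 4.53 to 4.99. The mean Ddit4 signals, in rising order, were 4.24 ± 0.41 (SD, n = 5) in Cx30GRko saline and 4.38 ± 0.35 in control saline arrays, then 5.12 ± 0.43 in control Dex and 5.16 ± 0.30 in Cx30GRko Dex arrays. These SDs hold both array sets, whose levels cannot be compared. Over all arrays the genotype difference in Ddit4 (Cx30GRko minus control) was -0.14 under saline and 0.04 under Dex. Neither was called in limma (adjusted p = 0.949 and 0.965). Under saline it was -0.22 within the first set and -0.03 within the second. Under Dex it was -0.09 and 0.24, and none of these was called. Both Cx30GRko Dex signals of the second set lay above both of its control Dex signals.

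**Figure D1:**
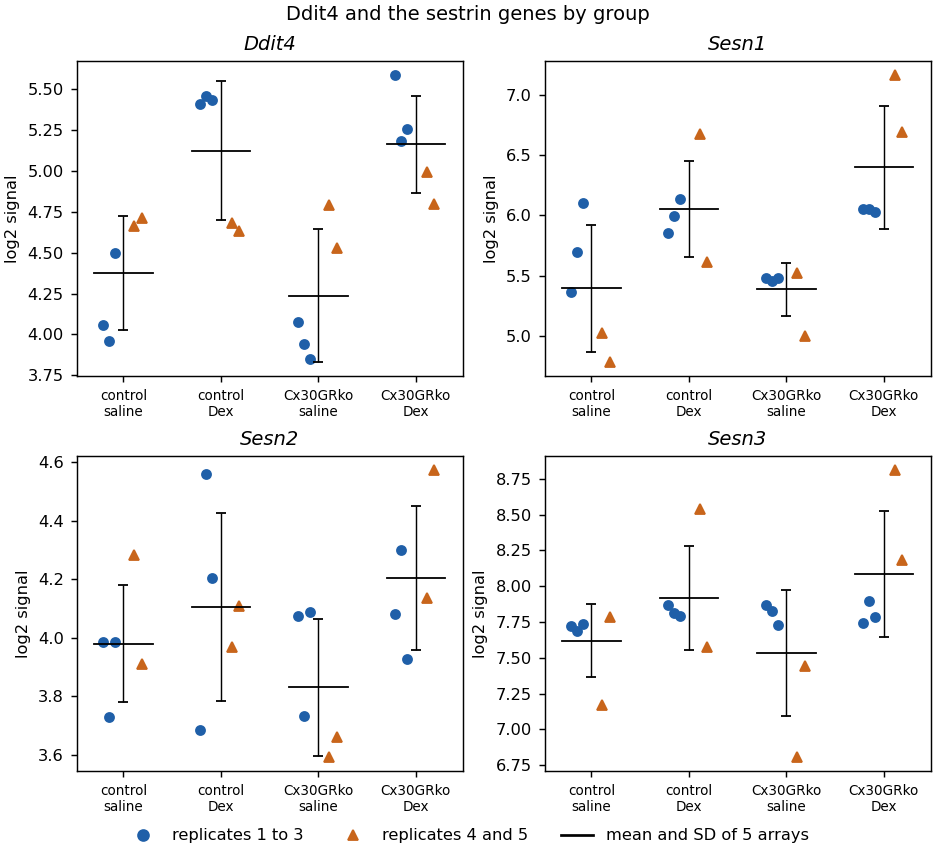
Log2 signal of Ddit4 and the 3 sestrin genes in each of the 20 arrays, by group, with the mean and SD of 5 arrays. Circles are replicates 1 to 3 and triangles replicates 4 and 5. For Ddit4 the circles separate by treatment (saline at most 4.50, Dex at least 5.18), and the triangles lie between 4.53 and 4.99 in all groups. For Sesn1 the triangles separate by treatment.

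The mean Dex effect on Ddit4 was 0.83 ± 0.16 log2 (SE of the limma fit; 95% interval 0.51 to 1.16; Benjamini-Hochberg adjusted p = 0.0285). An exact two-sided permutation that exchanged treatment within genotype and array set (14400 regroupings, smallest possible p 0.000139) gave p = 0.00125. Ddit4 was above the saline mean of its genotype and array set in 8 of 10 Dex arrays. The call rested on the arrays of replicates 1 to 3: it was lost when any 1 of 11 of these 12 arrays was left out (adjusted p 0.0564 to 0.0816), control saline replicate 3 being the exception, and kept without any 1 of the 8 arrays of replicates 4 and 5. It held with a block for the array set (adjusted p = 0.047), also after the pair of arrays that stood apart was left out of that fit, an alternative added after the values were seen (0.95 ± 0.17, adjusted p = 0.0406), and was lost with a replicate block (adjusted p = 0.107).

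Sesn1 (probe set 17232912), a sestrin also known as a target of p53, had log2 signals of 5.36, 5.70, 6.10, 5.02 and 4.78 in control saline and 5.85, 6.00, 6.14, 6.68 and 5.61 in control Dex arrays. In Cx30GRko mice Sesn1 stood at 5.48, 5.46, 5.48, 5.52 and 4.99 under saline and 6.06, 6.05, 6.03, 7.16 and 6.69 under Dex. All 10 Dex arrays lay above the saline mean of their genotype and set, and in replicates 4 and 5 all 4 Dex arrays lay above all 4 saline arrays. The saline signals of control mice ranged from 5.36 to 6.10 in replicates 1 to 3, and the highest lay among the Dex signals of that set. In replicates 4 and 5 they were 5.02 and 4.78. The mean Dex effect on Sesn1 was 0.84 ± 0.18 log2 (SE; 95% interval 0.47 to 1.21), a 1.79-fold difference that did not pass in limma (Benjamini-Hochberg adjusted p = 0.0756). The exact two-sided permutation, a test of this gene alone, gave p = 0.000417. Sesn1 was called when control saline replicate 3 was left out (0.93, adjusted p = 0.0304), without control Dex replicate 5 (0.89, adjusted p = 0.0492) and with array weights (0.59, adjusted p = 0.0365).

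Sesn2 (probe set 17430861), a sestrin that binds leucine, had log2 signals of 3.98, 3.73, 3.98, 4.28 and 3.91 in control saline and 3.68, 4.56, 4.21, 3.97 and 4.11 in control Dex arrays. In Cx30GRko mice Sesn2 stood at 4.07, 3.73, 4.09, 3.59 and 3.66 under saline and 4.08, 4.30, 3.93, 4.14 and 4.57 under Dex. Its groups overlapped in both array sets, and 7 of 10 Dex arrays lay above the saline mean. The mean Dex effect on Sesn2 was 0.25 ± 0.12 (SE; 95% interval 0.00 to 0.50; adjusted p = 0.577), and the exact two-sided permutation gave p = 0.0607.

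Sesn3 (probe set 17514732), the third sestrin, had log2 signals of 7.72, 7.69, 7.74, 7.17 and 7.79 in control saline and 7.87, 7.81, 7.80, 8.54 and 7.58 in control Dex arrays. In Cx30GRko mice Sesn3 stood at 7.87, 7.83, 7.73, 6.81 and 7.44 under saline and 7.74, 7.90, 7.79, 8.81 and 8.18 under Dex. All 12 arrays of replicates 1 to 3 lay between 7.69 and 7.90, whereas those of replicates 4 and 5 ranged from 6.81 to 8.81. The mean Dex effect on Sesn3 was 0.42 ± 0.16 (SE; 95% interval 0.09 to 0.76; adjusted p = 0.524), and the exact two-sided permutation gave p = 0.0397, unadjusted for the 9 genes tested in this way.

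At an unadjusted p under 0.05, 4 of the 9 genes (Ddit4 and the 3 sestrins) were higher after Dex, and 5.15% of all genes were. The median mean Dex effect over the 9 genes was 0.13, with 7 of them higher, and over all genes it was 0.02, with 54.1% higher.

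The 5 remaining brakes were not called. Ddit4l, the closest relative of Ddit4, had mean signals of 3.90 ± 0.18 under saline and 3.84 ± 0.47 under Dex in control mice, and 3.97 ± 0.27 and 4.04 ± 0.21 in Cx30GRko mice (SD, n = 5). Its mean Dex effect was 0.00 ± 0.13 (SE; 95% interval -0.27 to 0.28; adjusted p = 0.992).

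Deptor, whose product binds mTOR in both of its complexes, had means of 7.64 ± 0.27 and 7.76 ± 0.25 in control mice (saline, Dex) and 7.78 ± 0.07 and 7.71 ± 0.07 in Cx30GRko mice (probe set 17311533). Its mean Dex effect was 0.02 ± 0.10 (SE; 95% interval -0.18 to 0.23; adjusted p = 0.954), and that of its second probe set (17547877) was 0.03 ± 0.18. In replicates 1 to 3 all 6 Dex arrays of Deptor lay below the saline mean of their genotype (-0.12; exact two-sided permutation p = 0.025, smallest possible 0.005; limma adjusted p = 0.785). That permutation p is unadjusted for the 9 genes tested in this way. In replicates 4 and 5 Deptor went the other way, with 3 of 4 Dex arrays above that mean (0.24, exact two-sided permutation p = 0.444).

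Tsc1 had means of 5.68 ± 0.35, 5.38 ± 0.20, 5.37 ± 0.20 and 5.55 ± 0.18 (SD, n = 5) in the groups as ordered for Deptor, and a mean Dex effect of -0.06 ± 0.12 (SE; adjusted p = 0.895). Tsc2, its partner, had means of 6.52 ± 0.10, 6.35 ± 0.28, 6.49 ± 0.23 and 6.92 ± 0.56, and a mean Dex effect of 0.13 ± 0.15 (adjusted p = 0.808). The largest Tsc2 signals were the 7.88 and 6.95 of Cx30GRko Dex replicates 4 and 5, the arrays that stood apart, and the other 18 arrays lay between 6.02 and 6.68. Eif4ebp1 had means of 5.01 ± 0.51, 5.18 ± 0.41, 4.89 ± 0.44 and 4.49 ± 0.81, and a mean Dex effect of -0.11 ± 0.23 (95% interval -0.59 to 0.36; adjusted p = 0.903). Its lowest signal, 3.16, was that of Cx30GRko Dex replicate 4.

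**Figure D2:**
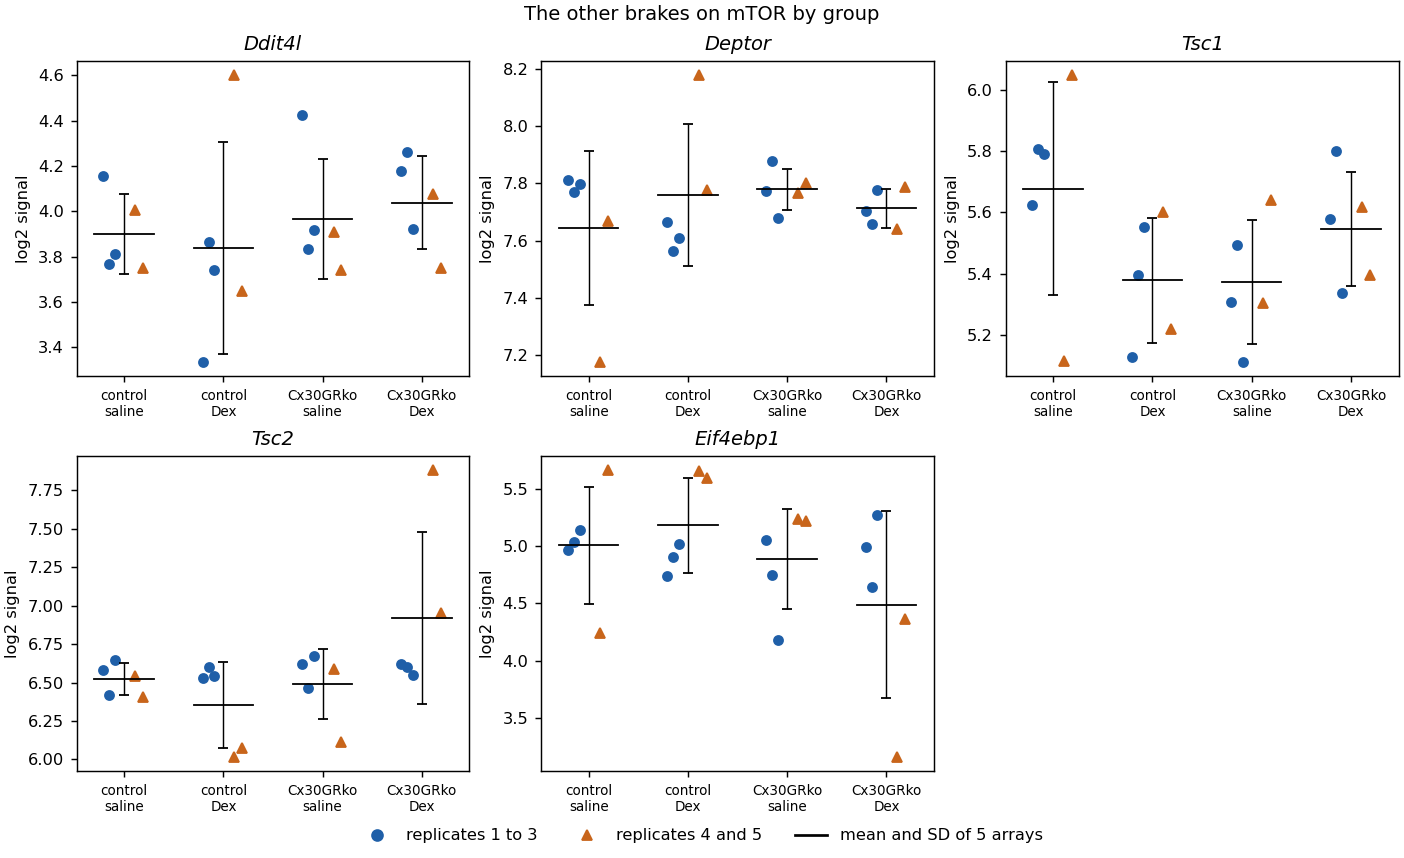
Log2 signal of Ddit4l, Deptor, Tsc1, Tsc2 and Eif4ebp1 in each of the 20 arrays, by group, with the mean and SD of 5 arrays. Circles are replicates 1 to 3 and triangles replicates 4 and 5. The Dex and saline arrays of these 5 genes overlap in both sets, and the triangles of Cx30GRko Dex arrays lie at 7.88 and 6.95 for Tsc2 and at 3.16 and 4.36 for Eif4ebp1.

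The next question was whether the response differed when astrocytes lack the receptor. Within each genotype none of the 9 genes was called. Dex against saline called 3 genes in control mice (0.0135% of all genes; 1144 at an unadjusted p under 0.05) and 4 in Cx30GRko mice (0.018%; 2158 at an unadjusted p under 0.05) in limma. Ddit4 stood at 0.74 ± 0.22 in control mice (SE; adjusted p = 0.61) and at 0.92 ± 0.22 in Cx30GRko mice (adjusted p = 0.39). The difference between these effects was 0.18 ± 0.32 (adjusted p = 0.939), with a 95% interval of -0.48 to 0.84. Within that interval the Ddit4 response of Cx30GRko mice could be smaller or larger than that of control mice. In replicates 1 to 3 alone Ddit4 rose in both genotypes: by 1.26 ± 0.15 in control mice (adjusted p = 0.00976; 38 genes called, 0.171%) and by 1.38 ± 0.15 in Cx30GRko mice (adjusted p = 0.00928; 7 genes called, 0.0316%). In replicates 4 and 5 the Ddit4 effects were -0.03 and 0.23, and neither was called.

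Sesn1 stood at 0.66 ± 0.25 in control mice (adjusted p = 0.851) and 1.01 ± 0.25 in Cx30GRko mice (adjusted p = 0.431), a difference of 0.35 ± 0.36 (95% interval -0.39 to 1.10). Sesn2 stood at 0.13 and 0.37, and Sesn3 at 0.30 and 0.55, in control and Cx30GRko mice. For the difference of the Dex effects between genotypes limma called 0 genes (0%; 1253 at an unadjusted p under 0.05). The nearest to a call among the brakes were Tsc1, at 0.47 ± 0.23, and Tsc2, at 0.60 ± 0.29 (adjusted p = 0.846 for both). Within the first set, which does not hold the arrays that stood apart, the Tsc2 difference was -0.0038 and the Tsc1 difference 0.65. Within the second set they were 1.49 and 0.20.

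Under saline the genotypes differed in 0 genes (0%; 1165 at an unadjusted p under 0.05 in limma), and the 9 brakes ranged from -0.31 (Tsc1) to 0.13 (Deptor). Under Dex they also differed in 0 genes (0%; 2481 at an unadjusted p under 0.05). Tsc2 was higher in Cx30GRko mice by 0.57 ± 0.21 (adjusted p = 0.423) and Eif4ebp1 stood at -0.70 ± 0.32 (adjusted p = 0.44) in limma, neither of which passed. Both differences lay in replicates 4 and 5: they were 1.37 for Tsc2 and -1.86 for Eif4ebp1 there, against 0.03 and 0.08 in the first set. Cell type markers differed in the same comparison. In replicates 4 and 5 the median genotype difference under Dex was 0.85 over 14 astrocyte, 0.99 over 9 oligodendrocyte and 0.59 over 12 neuron markers, and -0.89 over 8 skeletal muscle markers. Their part in the Tsc2 and Eif4ebp1 differences was not tested, and in RNA of the cord a change in the number of cells of a type cannot be told apart from a change in RNA per cell. The Cx30GRko Dex arrays there were those that stood apart, with the wider array SDs of 1.95 and 1.81. The astrocyte, oligodendrocyte and neuron lists stood at median percentiles of 95.3, 96.3 and 96.8 among all signals, and the muscle list at 36.5. In the same comparison Schwann cell markers (percentile 79.3) had a median of 0.53, endothelial markers (51.9) 0.36 and meningeal markers (69.3) 0.35. Mural markers (69.6) had 0.14, blood cell markers (14.1) -0.09 and microglia markers (69.1) -0.24. Over all genes the median was 0.04. The part of the wider array SDs in the marker, Tsc2 and Eif4ebp1 differences was not tested either.

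The last question was whether the 2 array sets gave the same Dex effects, and for Ddit4 they did not. Ddit4 rose 2.50-fold in replicates 1 to 3, by 1.32 ± 0.11 log2 (adjusted p = 0.000227 in limma; exact two-sided permutation p = 0.005, the smallest that 400 regroupings can give). This was the 9th largest rise of all genes in that set, in which limma called 101 genes (0.455%), Ddit4 alone among the 9. In replicates 4 and 5 the Ddit4 effect was 0.10 ± 0.18 (1.07-fold; adjusted p = 0.908 in limma). The difference between the sets, replicates 4 and 5 minus replicates 1 to 3, was -1.22 ± 0.19 for Ddit4 (adjusted p = 0.00546), and it was called in each of the 20 fits without 1 array. With array weights it was -1.21 ± 0.27 and no longer called (adjusted p = 0.0616). In the same test 479 genes were called (2.16%), in both directions, with 329 of them at the higher value in replicates 4 and 5.

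The residual SD of Ddit4 was 0.19 in the first set and 0.12 in the second, that of Sesn1 0.20 and 0.46, and that of Sesn3 0.06 and 0.51. The share of genes whose 6 Dex arrays all lay above the 6 saline arrays in replicates 1 to 3 was 0.685%, and Ddit4 was 1 of the 9 brakes among them. In replicates 4 and 5 the share with all 4 Dex arrays above all 4 saline arrays was 1.9%, and there Sesn1 was the 1 of the 9.

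The sestrins had the opposite order. Sesn1 stood at 0.43 ± 0.11 in replicates 1 to 3 and at 1.46 ± 0.29 in replicates 4 and 5, a difference of 1.03 ± 0.28 (adjusted p = 0.0586 in limma). Sesn3 stood at 0.06 and 0.97 ± 0.31, a difference of 0.92 ± 0.27 (adjusted p = 0.0834). Neither passed over all arrays, and both passed without control Dex replicate 5 (Sesn1 1.30, adjusted p = 0.0089; Sesn3 1.16, adjusted p = 0.0173) or without Cx30GRko Dex replicate 5 (1.15 and 1.08, adjusted p = 0.0245 each). Without Cx30GRko saline replicate 4 Sesn1 alone passed (1.16, adjusted p = 0.0407), and without control saline replicate 5 or Cx30GRko saline replicate 5 Sesn3 alone passed (1.07 and 1.08, adjusted p = 0.0388 and 0.0378). Over all 29 alternatives of this test the difference ranged from 0.77 to 1.30 for Sesn1 and from 0.59 to 1.16 for Sesn3. For each of these genes only 4 of the 29 gave a call. Sesn2 stood at 0.19 and 0.33 in the 2 sets, Deptor at -0.12 and 0.24, Ddit4l at -0.10 and 0.17, Tsc1 at -0.06 and -0.07, Tsc2 at 0.00 and 0.32 and Eif4ebp1 at 0.08 and -0.39.

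**Figure D3:**
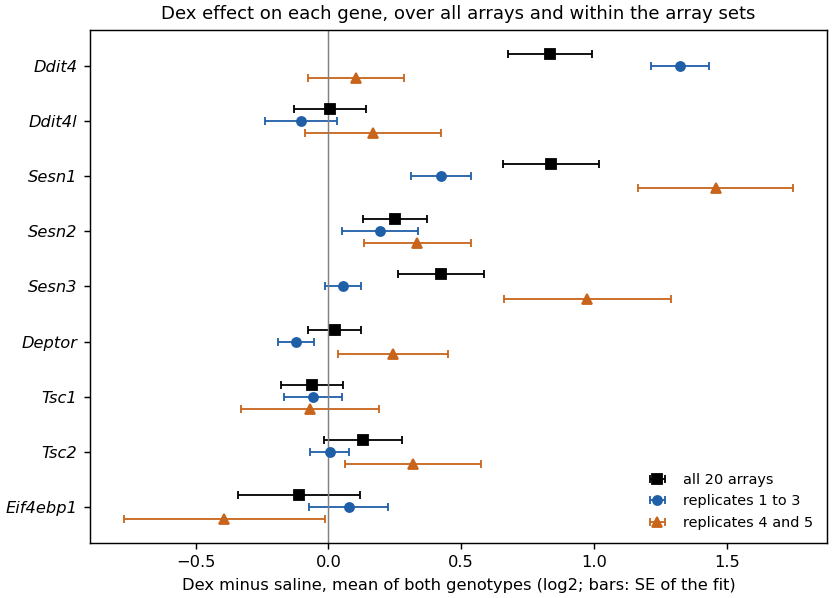
Dex minus saline, averaged over both genotypes, for each of the 9 genes, in log2 with the SE of the limma fit. Squares are all 20 arrays, circles replicates 1 to 3 and triangles replicates 4 and 5. Ddit4 stands at 1.32 for the circle and 0.10 for the triangle, Sesn1 at 0.43 and 1.46, and Sesn3 at 0.06 and 0.97.

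Median Dex effects of cell type marker lists also differed between the sets, and no list was tested as a set. The median mean Dex effect over 14 astrocyte markers was 0.05 in the first set and 0.43 in the second, and over 12 neuron markers it was -0.01 and 0.54. Over all genes the set medians were 0.00 and 0.04. Of these markers, S100b (adjusted p = 0.00371), Rbfox3 (0.0148) and Slc6a5 (0.0185) passed the limma test of the difference between the sets, each higher in the second set. The other astrocyte and neuron markers did not pass, and 2.16% of all genes did. Over 10 endothelial markers the medians were -0.22 and 0.15. Of these 10 genes 3 were called as lower in the first set, and 22 of all 22180 genes were. Among the 3 were Tek and Kdr, receptors of blood vessel cells, with -0.96 and -0.95. Ly6c1, another of the 10, went the other way without a call, with 0.57 in the first set and 0.09 in the second. In the second set Tek stood at 0.37 and Kdr at 0.22, and the difference between the sets passed for Tek (adjusted p = 0.00705) and not for Kdr (0.0581). The mean astrocyte marker score (log2, centred on each gene's mean) ranged from -0.38 to -0.02 under saline and -0.35 to 0.08 under Dex in control mice, and from -0.27 to 0.05 under saline in Cx30GRko mice. Their Dex arrays ranged from -0.05 to 0.79, with 0.79 and 0.44 in replicates 4 and 5. The neuron score ranged from -0.47 to 0.02, -0.04 to 0.11, -0.15 to 0.13 and -0.08 to 0.68 in the same order of groups. The part of these shifts in the values of Ddit4 and the sestrins was not tested. With a block for the array set and without Cx30GRko Dex replicates 4 and 5, the mean Dex effect was 0.60 for Sesn1 and 0.24 for Sesn3.

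Other glucocorticoid-induced genes were set beside Ddit4, since 4 of the 33 called genes differed between the sets (Ccng1, Cdkn1a, Ddit4 and Zfp36). Of 18 such genes 9 rose and none fell, where 0.149% of all genes were called. Their median mean Dex effect was 0.72, and the set medians were 0.80 and 0.61. This list was chosen with earlier results of these data known, so its rise is no independent result. Fkbp5, a co-chaperone of the receptor, had set values in the order of Ddit4, 1.18 and -0.05, with a difference that passed (adjusted p = 0.0213 in limma), although its mean Dex effect of 0.69 ± 0.18 did not (adjusted p = 0.214). Cdkn1a, an inhibitor of the cell cycle and like Sesn1 a known p53 target, had the opposite one, 1.29 and 2.56 (adjusted p = 0.0253). Sgk1, the serum- and glucocorticoid-regulated kinase, had similar values of 1.10 and 0.87, and Arrdc2 stood at 1.43 and 0.65 (adjusted p = 0.762 and 0.117 for the difference).

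**Figure D4:**
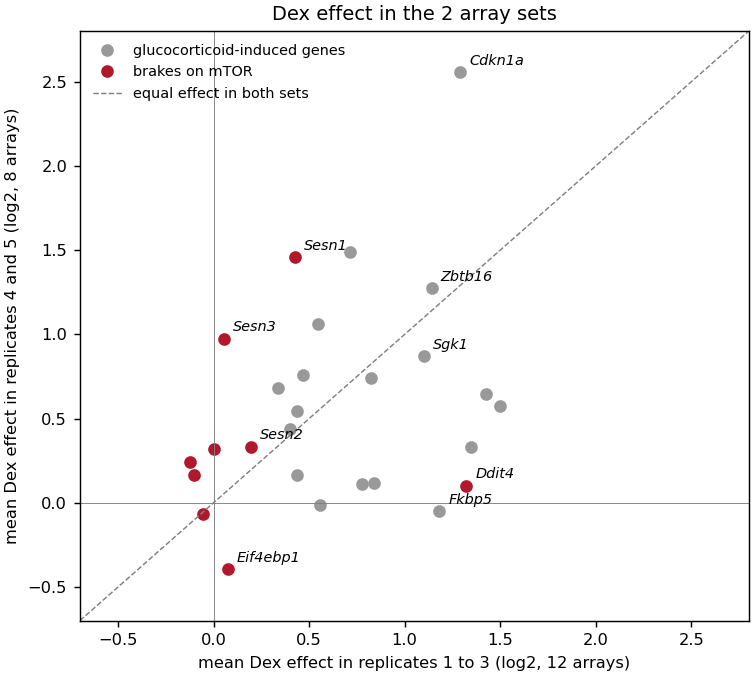
Mean Dex effect in replicates 1 to 3 (12 arrays, x axis) against that in replicates 4 and 5 (8 arrays, y axis), both in log2, for the 9 brakes and 18 glucocorticoid-induced genes. The dashed line marks equal effects. Ddit4 (1.32 and 0.10) and Fkbp5 (1.18 and -0.05) lie far below it, Sesn1 (0.43 and 1.46), Sesn3 (0.06 and 0.97) and Cdkn1a (1.29 and 2.56) above it.

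The genes whose signals followed Ddit4 most closely over the 20 arrays were named by Pearson correlation, given as a description since all arrays share the treatment and the array sets. They were Dclre1b, a DNA repair nuclease (r = 0.93, Spearman's rho = 0.92), Zfp36, a protein that promotes the decay of cytokine transcripts (0.91 and 0.90), the xanthine dehydrogenase gene Xdh (0.85 and 0.88), the sphingolipid transporter gene Spns2 (0.85 and 0.84) and Rhpn2 (0.84 and 0.83). Their mean Dex effects, first set before second, were 0.97 and 0.01 for Dclre1b, 1.44 and 0.37 for Zfp36, 1.09 and 0.10 for Xdh, 0.89 and 0.04 for Spns2, and 0.60 and 0.20 for Rhpn2. Zfp36 alone of the 5 was called for the mean Dex effect (1.01 ± 0.18, adjusted p = 0.0115 in limma). Within replicates 1 to 3 the correlations with Ddit4 were 0.90 to 0.98, and within replicates 4 and 5 they ranged from -0.27 to 0.64. The 5 genes were picked by correlation over these same arrays, in which Ddit4 had its wider range in the first set. High correlations and larger Dex effects in that set therefore follow in part from the choice. No other brake was near the top: Sesn1 was the closest (r = 0.41, rank 649 of 22179 genes), followed by Sesn2 (0.31, rank 1378), and Deptor stood at -0.27.

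The rest of the mTOR pathway was examined as lists of genes, and limma called none of their members for the mean Dex effect. Of all genes 0.149% were called, and at that share lists of this size would seldom hold a call. Among 10 subunits of mTOR complexes 1 and 2 the median was 0.08 with 7 higher. The kinase gene Mtor itself stood at -0.04 ± 0.10 and Rictor, of complex 2, at 0.45 ± 0.23 (adjusted p = 0.593). Among 15 measured genes of growth factor signalling the median was 0.13 with 12 higher, and the smallest p was that of the kinase gene Akt1 at 0.29 ± 0.13 (adjusted p = 0.563). Akt1 differed between the sets (0.00 and 0.71, adjusted p = 0.0494 for the difference).

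Among 25 genes of amino acid sensing at the lysosome the median was 0.12 with 19 higher. Castor1, an arginine sensor that restrains mTOR complex 1, had the smallest p at 0.52 ± 0.13 (adjusted p = 0.214). In replicates 1 to 3 Castor1 was the 1 gene of these lists that was called in limma, with a rise of 0.69 (adjusted p = 0.0069). In that set 0.455% of all genes were called. Castor1 stood at 0.26 in replicates 4 and 5. The lysosomal arginine transporter gene Slc38a9 had -0.07 and 1.00 in the sets (adjusted p = 0.0403 for the difference), and Rragc, a GTPase of the same machinery, -0.05 and 1.00 (adjusted p = 0.0508).

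Among 10 genes of AMPK, the energy-sensing kinase, and its activating kinase the median was 0.08, with the catalytic subunit gene Prkaa1 at 0.30 ± 0.17 (adjusted p = 0.618). Among 13 measured outputs of mTOR complex 1 it was 0.08, with the phosphatidate phosphatase gene Lpin1 at 0.40 ± 0.15 (adjusted p = 0.487) and Eif4ebp2, the relative of Eif4ebp1, at 0.33 ± 0.12 (adjusted p = 0.497). Among 12 genes of the Atf4 stress programme, which also induces Ddit4 and Sesn2 under stress, it was 0.02. The transcription factor gene Atf3 stood at 0.30 ± 0.13 (adjusted p = 0.566) and the asparagine synthetase gene Asns at 0.23 ± 0.14 (adjusted p = 0.652). These medians compare with 0.02 over all genes, of which 54.1% were higher, and 0.72 over the glucocorticoid-induced genes. By genotype the medians of the mTOR pathway and Atf4 lists ranged from -0.07 to 0.05 in control and from 0.10 to 0.23 in Cx30GRko mice. Over all genes they were 0.01 and 0.02. By array set these lists ranged from -0.02 to 0.05 in the first set and from 0.03 to 0.26 in the second. Over all genes the set medians were 0.00 and 0.04. The part of the arrays that stood apart was not tested.

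**Figure D5:**
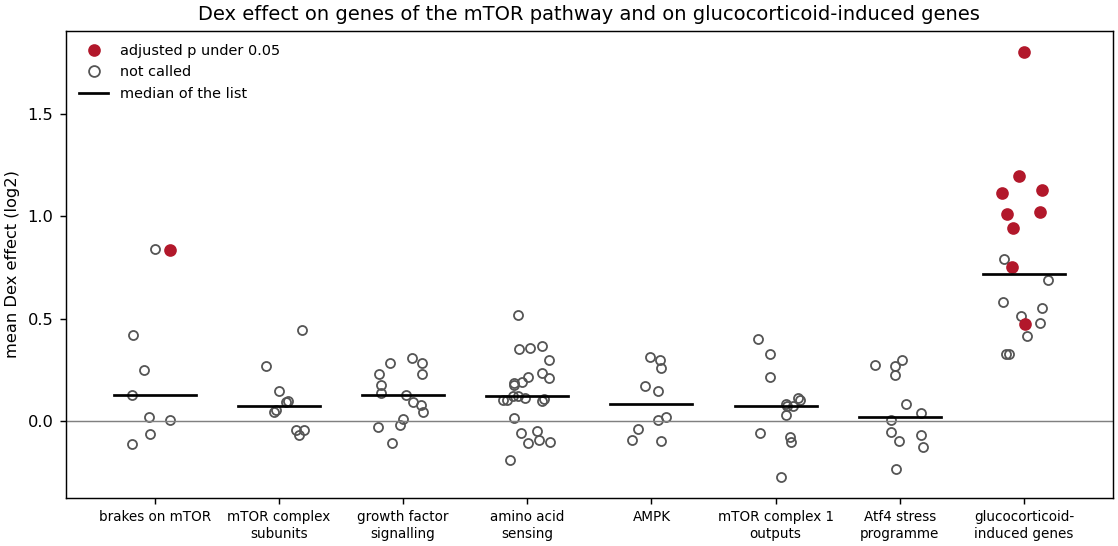
Mean Dex effect over all 20 arrays (log2) for each measured gene of 8 lists. Filled points passed an adjusted p of 0.05 in limma, as 0.149% of all genes did, open points did not, and bars mark list medians. Ddit4 is the 1 filled point among the brakes on mTOR, the 6 other mTOR-related lists hold none (medians 0.02 to 0.13), and 9 of the 18 glucocorticoid-induced genes are filled.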

How the data were processed

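RNA of spinal cord was labelled for Affymetrix whole-transcript arrays, per the labels' protocols. The authors deposited 1 table of log2 probe set signals, made with oligo per the submitters' processing notes. Its version, normalization, build and annotation are not given in the sources used here. Each array mean was 4.64, and probe set means of the 2 array sets, which the labels do not mention, agreed to 4.54e-09. Of 41345 probe sets 23521 had 1 symbol in the platform annotation (which can be old), 1814 several and 16010 none. For each of 22180 genes the probe set with the highest mean was tested (1082 had several), with no filter on dim probe sets. limma 3.58.1 in R 4.3.3 fitted a mean per group over all 20 arrays (16 residual and 5.66 prior degrees of freedom), with Benjamini-Hochberg adjustment over all genes in each comparison and two-sided p-values. These degrees of freedom do not count the 1 that centring within the sets used up; the block for the array set does. The difference between sets came from a mean per group and set, and within-set values from separate fits. P-values measure the spread between arrays of separate mice. Every array value is given for Ddit4 and brakes with an unadjusted p under 0.05 for the mean Dex effect. Also named were up to 3 genes with the smallest p from other lists, and the 5 genes most correlated with Ddit4. Mtor, Slc38a9, Fkbp5 and Ccng1 were named after their values were seen. The genes, lists, array sets and alternatives were chosen with earlier results of these data known. The fits were tested on simulated data first. Promoters came from RefSeq, and motifs were searched in the 250 bases before each start.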

Additional observations from a re-analysis of the deposited data

Results flagged for a closer look

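The Dex effect on Ddit4 differed between the array sets by -1.22 (replicates 4 and 5 minus replicates 1 to 3, log2; adjusted p = 0.00546 in limma). In 36 groups of 5 arrays (9 genes in 4 groups) a single array far from the rest was looked for by Dixon's test at its 95% critical value of 0.71 of the range. For arrays of a common level and spread chance exceeds this value in about 1 in 20 groups. Each group held arrays of both sets, whose levels cannot be compared and whose median residual SDs were 0.21 and 0.37. That rate need therefore not hold here, and a flagged value can reflect the sets. Ddit4l stood at 4.43 in Cx30GRko saline replicate 1, with the nearest of that group at 3.92. Sesn1 stood at 4.99 in Cx30GRko saline replicate 5 (nearest 5.46). Sesn3 stood at 7.17 in control saline replicate 4 (nearest 7.69), and Deptor at 7.18 in the same array (nearest 7.67).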

How the results depend on the processing

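The values of the 9 brakes and the counts of called genes were recomputed under up to 35 alternatives per comparison, and no called value of a brake changed its sign. List medians, genes that are not brakes, correlations and marker scores were not recomputed. With a replicate block the mean Dex effect on Ddit4 kept its size of 0.83 but not its call (adjusted p = 0.107), so that 0 of the 9 brakes were called, and 2 (Ddit4 and Sesn1) were called for the difference between array sets. Arrays of the same number in different groups had a median correlation of deviations of -0.0873, with 0 of 30 pairs above 0.1. For arrays of other numbers in the same set the median was -0.0984. Centring pulls such correlations below 0, so that 0.1 is a loose limit. With the medians this close, the numbers are not taken to pair mice. For the mean Dex effect 0 brakes were called at an adjusted p under 0.01 (Ddit4 0.83) or in replicates 4 and 5 only (Ddit4 0.10), and 2 with array weights. Array weights also gave 1 call in each genotype (Ddit4 1.07 in control and 1.17 in Cx30GRko mice) and 0 for the difference between sets (Ddit4 -1.21). Replicates 1 to 3 alone gave 1 call in each genotype (Ddit4 1.26 and 1.38). Leaving out each array in turn gave 0 to 2 called brakes and a Ddit4 effect of 0.78 to 0.90 for the mean Dex effect, and 1 to 3 called brakes for the difference between sets (Ddit4 -1.30 to -1.15). The exact permutation p of Sesn2 was 0.0434 when treatment was exchanged within genotype only. The count of all genes called for the mean Dex effect moved from 33 to 15 with a replicate block, 129 with array weights, 101 in replicates 1 to 3, 0 in replicates 4 and 5 (where 2224 had an unadjusted p under 0.05), 13 at an adjusted p under 0.01, and 18 to 35 without 1 array. That for the difference between sets moved from 479 to 185 after quantile normalization (94 larger in replicates 4 and 5), 244 after cyclic loess (120), 53 with array weights (38), 67 at an adjusted p under 0.01, and 226 to 1574 without 1 array. The cause was not tested. Uncalled mean Dex effects near 0 changed sign in 12 of 34 alternatives for Ddit4l, 6 for Deptor, 4 for Eif4ebp1 and 2 for Tsc2. The alternative that left out both arrays that stood apart with no block for the array set compares Cx30GRko Dex arrays of one set with arrays of both. With 2 arrays per group in replicates 4 and 5 the exact permutation there cannot go below 0.0556.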
